A study of Mus musculus with 14 samples.

Results

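The genes described here are the ligands and receptors of the classical axon guidance families: the semaphorins with their plexin and neuropilin receptors, the ephrins with their Eph receptors, the Slits with their Robo receptors, and the netrins. They were taken by gene symbol from a table of brain RNA levels, by a rule on the letters of the symbol alone, which gave 64 members among 46904 genes: 20 semaphorins, 9 plexins, 2 neuropilins, 14 Eph receptors, 8 ephrins, 4 Robo receptors, 3 Slits and 4 netrins. All 64 are protein-coding genes, all had reads in each of the 14 libraries, and all 64 passed the filter used for testing (above 0 in at least 2 libraries).

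The libraries came from male mice aged 12 weeks on a C57BL/6J background, either wild-type (Cort+/+) or lacking the gene for the neuropeptide cortistatin in every cell (Cort-/-). In each mouse a filament introduced through the left common carotid artery closed the middle cerebral artery (MCAO) for 20 min, and brains were collected 48 h later and divided into the ischemic hemisphere, called MCAO, and the contralateral hemisphere, called CL. Polyadenylated RNA was sequenced from 3 Cort+/+ CL, 3 Cort+/+ MCAO, 3 Cort-/- CL and 5 Cort-/- MCAO hemispheres. Cort+/+ MCAO replicates are numbered 2 to 4 in the labels, whose protocol names 5 replicates for MCAO, and any others were not analysed here. The methods state that where replicates scattered widely, those that grouped together were kept, and how that affected the spread within these groups was not tested. The CL hemisphere belongs to an operated brain, no hemisphere of an unoperated mouse was compared here, and the labels do not state which CL and MCAO hemispheres came from the same mouse.

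Axon guidance cues steer growing axons during development by attracting or repelling the growth cone. Semaphorins signal through plexins, with neuropilins as co-receptors for most secreted class 3 members. Ephrins are bound to the membrane and signal through Eph receptor tyrosine kinases on the neighbouring cell and also back into their own cell. Slits repel axons through Robo receptors, and netrins attract or repel them through receptors such as Dcc and Unc5. In the adult brain these genes stay active in neurons, glia and vessels, where they are known for roles in synapses, angiogenesis and the response to injury.

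The libraries held 25989673 to 43032291 reads on genes, and the 64 members took 0.310% to 0.347% of them. The member with the fewest reads in any library, Efna4, had 6, and 4 members had under 100 reads in at least 1 library. Cort itself had 0 to 4 reads in each Cort-/- library and 64 to 139 in each Cort+/+ library. RPKM, the unit of all levels below, divides the reads of a gene by its length and by the size of the library. Log2 fold changes (log2FC) are on the scale of log2(RPKM + 0.1), which understates changes of low genes, and p-values are from limma, adjusted by Benjamini-Hochberg over 46102 genes. A member counted as changed at an adjusted p under 0.05.

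In the comparison of the hemispheres over both genotypes 6 members changed: 3 Eph receptors, 2 ephrins and 1 plexin. Their share of the members is given below, beside 3.43% of all tested genes and 8.05% of genes averaging 1 RPKM or more. The 300 bases before the start of the canonical transcript of each are shown because these are the members counted as changed. They were read from the GRCm39 genome with GENCODE M39 transcripts and are printed 5′ to 3′ on the gene's strand. Capitals mark letters that match, on either strand, a GC box, a TATA box, an AP-1 site, the hypoxia response core, a STAT site or a cAMP response element, whose letters are spelled out after the sequences. The 4 members that fell were these.
Epha8, chr4:136684203-136684502, minus strand: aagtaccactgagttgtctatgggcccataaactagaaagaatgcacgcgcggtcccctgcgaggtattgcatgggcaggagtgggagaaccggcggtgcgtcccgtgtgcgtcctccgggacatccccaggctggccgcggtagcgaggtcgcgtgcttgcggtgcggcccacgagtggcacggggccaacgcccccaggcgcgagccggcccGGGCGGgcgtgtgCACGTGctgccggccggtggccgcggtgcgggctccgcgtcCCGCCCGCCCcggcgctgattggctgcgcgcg
Efnb2, chr8:8711250-8711549, minus strand: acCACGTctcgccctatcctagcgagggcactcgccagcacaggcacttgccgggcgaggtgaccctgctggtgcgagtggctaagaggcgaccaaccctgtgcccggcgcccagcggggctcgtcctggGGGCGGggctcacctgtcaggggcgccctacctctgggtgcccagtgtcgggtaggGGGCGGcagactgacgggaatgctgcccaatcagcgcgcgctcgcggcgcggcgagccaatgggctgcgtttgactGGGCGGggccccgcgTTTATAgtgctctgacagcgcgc
Epha4, chr1:77491726-77492025, minus strand: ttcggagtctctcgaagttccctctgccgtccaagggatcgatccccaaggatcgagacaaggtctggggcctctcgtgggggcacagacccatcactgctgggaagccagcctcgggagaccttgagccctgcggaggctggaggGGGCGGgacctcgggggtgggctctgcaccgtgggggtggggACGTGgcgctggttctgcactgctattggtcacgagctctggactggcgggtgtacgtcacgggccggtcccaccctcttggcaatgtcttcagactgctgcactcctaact
Efnb3, chr11:69451324-69451623, minus strand: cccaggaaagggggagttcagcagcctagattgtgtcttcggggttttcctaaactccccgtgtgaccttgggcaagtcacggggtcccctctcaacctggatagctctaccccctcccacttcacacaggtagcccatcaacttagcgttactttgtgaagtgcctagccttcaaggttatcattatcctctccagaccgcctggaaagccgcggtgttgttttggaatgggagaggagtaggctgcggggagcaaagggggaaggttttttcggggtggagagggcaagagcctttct
The 2 members that rose were these.
Plxnb2, chr15:89065180-89065479, minus strand: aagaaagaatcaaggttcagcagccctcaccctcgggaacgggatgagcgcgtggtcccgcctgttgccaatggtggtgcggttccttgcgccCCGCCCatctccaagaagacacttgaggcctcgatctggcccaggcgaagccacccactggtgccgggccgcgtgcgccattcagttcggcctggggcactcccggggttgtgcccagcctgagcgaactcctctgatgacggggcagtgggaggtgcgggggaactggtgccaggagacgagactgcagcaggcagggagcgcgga
Epha2, chr4:141028240-141028539, plus strand: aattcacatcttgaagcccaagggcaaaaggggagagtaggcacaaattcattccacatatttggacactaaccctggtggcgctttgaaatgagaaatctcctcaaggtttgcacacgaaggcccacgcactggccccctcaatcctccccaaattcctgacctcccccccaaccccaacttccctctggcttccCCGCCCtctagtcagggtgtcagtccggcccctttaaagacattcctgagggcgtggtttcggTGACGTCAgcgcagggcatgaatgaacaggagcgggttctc

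The GC box, searched as GGGCGG, stood in 5 of these 6 windows, and Efnb3 held none of the 6 motifs. It was found in 40 of the 64 members (62.5%) and in 30.2% of all 35187 windows of the same length. Here and below, all windows are those of tested genes of any type. All 64 members are protein-coding, and a comparison with protein-coding genes alone was not made. The hypoxia response core, searched as ACGTG, occurred in 3 of the 6, Efnb2, Epha4 and Epha8, where the 2 overlapping matches of Epha8 are the forward and reverse reading of one palindrome. It occurred in 10 of 64 members (15.6%) and 18.6% of all windows. The cAMP response element, searched as TGACGTCA and itself containing no other of the motifs, stood in Epha2 alone of the 6, in 2 of 64 members and in 1.33% of all windows. Of the 6 windows, that of Efnb2 held the TATA box, searched as TATAAA and present in 4.69% of members and 14.7% of all windows. No window of the 6 held the AP-1 site, searched as TGANTCA (3 of 64 members and 7.49% of all windows). The same was true of the STAT site, searched as TTCNNNGAA (3 of 64 members and 8.56% of all windows). The windows were rich in G and C, with a median of 65.3% in the 6, 60.2% in all 64 members and 50.3% over all windows. These matches describe letters in a window and show no binding.

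In these hemispheres the most abundant members were Efnb3 at a mean of 41.7 RPKM over the 14 libraries, Sema7a at 41.3, Sema6b at 31.8, Epha4 at 30.3 and Ephb6 at 29.1. The lowest were Epha1 at 0.175, Efna4 at 0.253 and Epha2 at 0.482 RPKM, and the other 61 members averaged 1 RPKM or more. Semaphorins held 32.1% of the summed RPKM of the members, plexins 19.5%, Eph receptors 18.6%, ephrins 15.4%, Slits 5.72%, Robo receptors 4.37%, neuropilins 2.56% and netrins 1.79%. All 9 plexins lay between 5.59 and 16.9 RPKM, whereas Eph receptors ran from 0.175 to 30.3 RPKM. The gene lengths behind the RPKM were shorter than the summed exons of GENCODE M39 for all 64 members (median ratio 0.714, lowest 0.236), so the order of levels between genes depends on the lengths chosen, and fold changes of a gene do not.

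**Figure D1:**
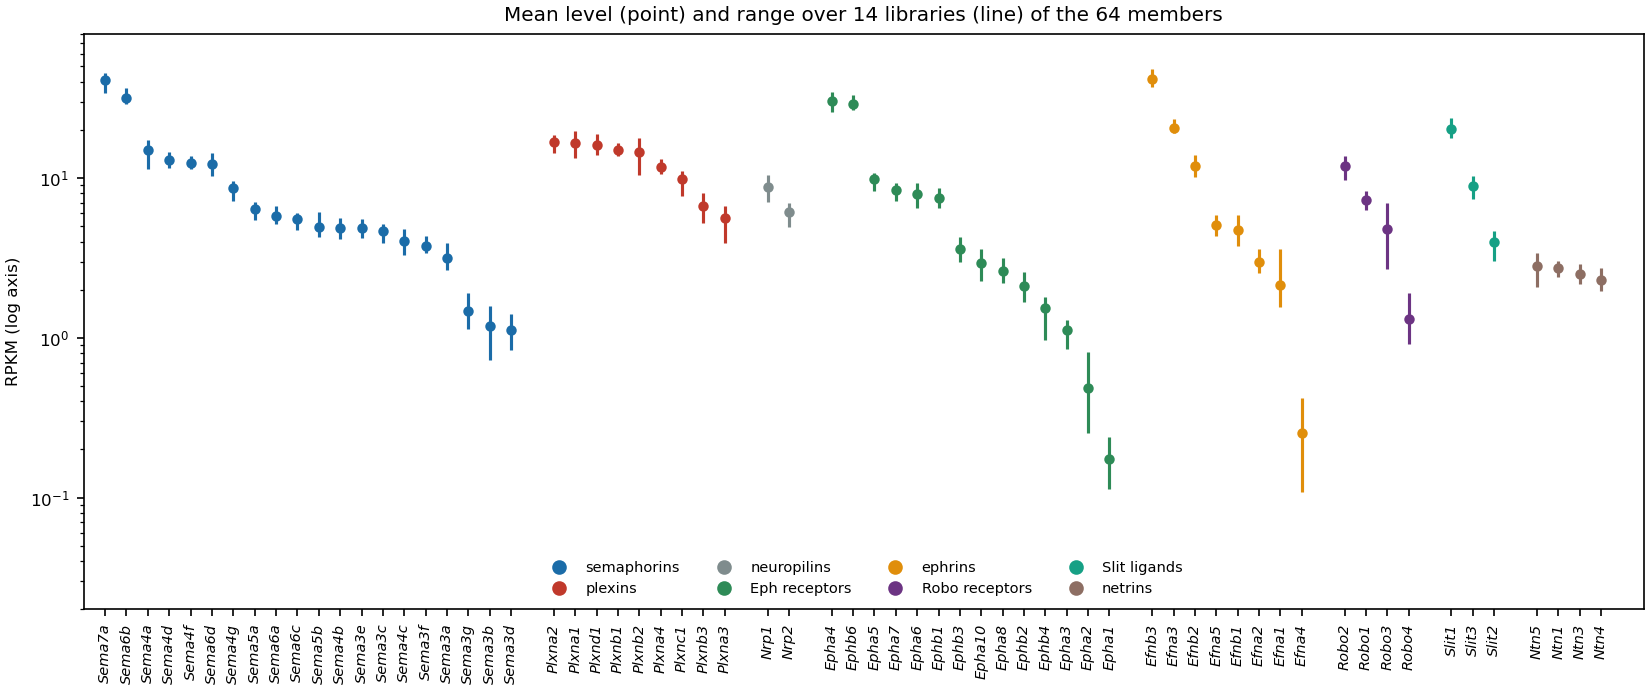
Mean RPKM (points, log axis) and the range over the 14 libraries (lines) of each of the 64 members, grouped by family and ordered by mean. Efnb3 and Sema7a lie highest at 41.7 and 41.3 RPKM, Epha1 lowest at 0.175 RPKM.

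Averaged over both genotypes, 6 of 64 members (9.38%) differed between MCAO and CL at an adjusted p under 0.05, by 11.2% to 58.2% of the CL level on the scale of RPKM + 0.1, where 3.43% of all tested genes and 8.05% of genes averaging 1 RPKM or more did. Of these, Plxnb2 and Epha2 were higher in MCAO, and Epha8, Efnb2, Epha4 and Efnb3 were lower. Among all genes, 2.52% were called higher and 0.902% lower. Scaling the values to TPM left 3 calls (Epha8 lower, Plxnb2 and Epha2 higher), and limma voom on the recovered reads gave 5, with 4.71% of all genes called (Plxnb2, Epha2 and Nrp1 higher, Epha8 and Epha4 lower), so Epha8, Plxnb2 and Epha2 kept their calls under these 2 settings (for Epha2 not under all scalings, as given with its values). At an unadjusted p under 0.05 there were 19 members (29.7% of 64, against 14.9% of all genes and 28.8% of genes averaging 1 RPKM or more), of which 5 were higher (8.02% of all genes) and 14 lower (6.83%). Shares by direction, here and below, are of all tested genes, low ones included. Those among genes averaging 1 RPKM or more are not given, so an excess in 1 direction at like levels was not tested.

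Over all 64 members the median log2FC was −0.04 with 41 lower, beside a median of −0.03 and 58.5% lower among genes averaging 1 RPKM or more. This leaning depended on the scaling: with TPM the median was −0.01 with 34 lower, and with voom 0.01 with 30 lower. The family medians of this comparison were −0.08 for ephrins (6 of 8 lower), −0.08 for Slits (3 of 3 lower), −0.05 for Eph receptors (11 of 14 lower), −0.02 for semaphorins (13 of 20 lower), 0.01 for plexins (4 of 9 lower), 0.03 for netrins (2 of 4 lower), 0.06 for Robo receptors (2 of 4 lower) and 0.15 for neuropilins (0 of 2 lower). These too depended on the scaling. The semaphorin median was above 0 with TPM (0.01) and with voom (0.03). Of the Eph receptors, 9 of 14 were lower with TPM (median −0.02) and 7 of 14 with voom (−0.006). Of the ephrins, 6 of 8 were lower with TPM (−0.05) and 5 of 8 with voom (−0.02). The netrin median was −0.02 with quantile scaling. No family was called as a whole, since these are counts and medians without a test.

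**Figure D2:**
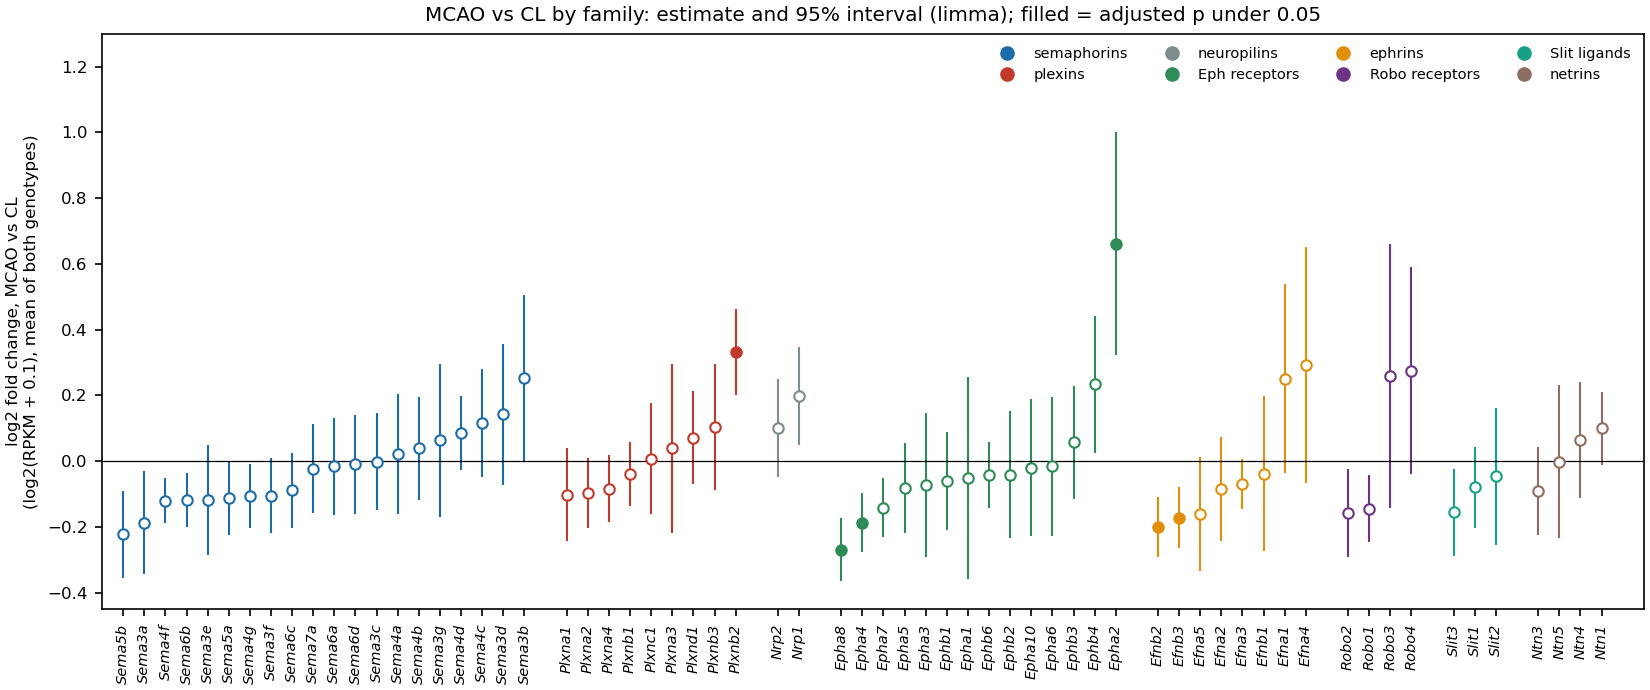
Log2 fold change of MCAO against CL, averaged over both genotypes, for each of the 64 members by family (points, limma estimate on log2(RPKM + 0.1), and bars, 95% confidence interval). Filled points mark the 6 members with an adjusted p under 0.05, of which Epha2 (0.66) and Plxnb2 (0.33) lie above 0, and Epha8 (−0.27), Efnb2 (−0.20), Epha4 (−0.19) and Efnb3 (−0.17) below.

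Epha8 (ENSMUSG00000028661.10, GRCm39 chr4:136656730-136684202), an EphA receptor that binds A-type ephrins, fell most clearly. It measured 3.15, 2.96 and 2.92 RPKM in the Cort+/+ CL hemispheres and 2.46, 2.45 and 2.48 in Cort+/+ MCAO. In Cort-/- mice it measured 2.79, 2.93 and 2.87 RPKM in CL and 2.20, 2.35, 2.44, 2.48 and 2.39 in MCAO. Every MCAO library was below every CL library, in both genotypes. The log2FC was −0.28 ± 0.07 (SE) in Cort+/+ mice (adjusted p = 0.215), −0.26 ± 0.06 in Cort-/- mice (adjusted p = 0.0442) and −0.27 ± 0.04 over both (adjusted p = 0.00586), a level lower by 17.0%. The call over both genotypes held in 14 of 14 fits with 1 library left out (adjusted p 0.00545 to 0.0190). The call within Cort-/- mice held only in the fits without Cort-/- MCAO 3 (0.0437) or Cort+/+ CL 1 (0.0466), and reached 0.145 without Cort-/- CL 3. In bulk tissue, fewer cells that express a gene and less RNA per cell cannot be told apart, here and below.

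Epha4 (ENSMUSG00000026235.16, chr1:77343822-77492816), the most abundant Eph receptor here, binds ephrins of both the A and B types and is known for repelling axons. Its level was 32.2, 32.4 and 30.8 RPKM in Cort+/+ CL and 27.8, 28.4 and 28 in Cort+/+ MCAO. The Cort-/- hemispheres measured 34.4, 31.6 and 33.5 RPKM in CL and 25.8, 31.7, 29.6, 29.4 and 28.5 in MCAO. The groups did not overlap in Cort+/+ mice, and in Cort-/- mice 1 MCAO hemisphere reached the CL range. Over both genotypes Epha4 fell by 12.2% (log2FC −0.19 ± 0.04, adjusted p = 0.0271). The call was lost without Cort-/- CL 1 (0.0768), Cort-/- CL 3 (0.0667), Cort+/+ CL 1 (0.0510), Cort+/+ CL 2 (0.0624), Cort+/+ MCAO 2 (0.0709) or Cort+/+ MCAO 3 (0.0605), and under TPM scaling (0.159).

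Epha2 (ENSMUSG00000006445.5, chr4:141028540-141056695), a receptor of A-type ephrins that is abundant in epithelia and vessels, showed the largest fold change of the members and was among the lowest of them. With 33 to 134 reads per library it measured 0.324, 0.369 and 0.370 RPKM in Cort+/+ CL and 0.647, 0.563 and 0.396 in Cort+/+ MCAO. In Cort-/- mice the values were 0.259, 0.254 and 0.395 RPKM in CL and 0.658, 0.535, 0.445, 0.820 and 0.707 in MCAO. MCAO and CL did not overlap in either genotype. Over both genotypes the log2FC was 0.66 ± 0.16 (adjusted p = 0.0372), with 0.46 ± 0.23 in Cort+/+ (adjusted p = 0.686) and 0.86 ± 0.21 in Cort-/- mice (adjusted p = 0.0614). The call held without Cort-/- CL 3 (0.0364), Cort-/- MCAO 2 (0.0462), Cort-/- MCAO 3 (0.0191) or Cort+/+ MCAO 4 (0.0224), and was lost in the other 10 fits, up to 0.104 without Cort+/+ MCAO 2, and with quantile scaling (0.0572) or a pseudocount of 1 (0.0574).

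Of the other Eph receptors, Epha7 (chr4:28813034-28967507), a repulsive receptor of A-type ephrins, measured 8.45, 8.99 and 9.19 RPKM in Cort+/+ CL and 8.53, 8.10 and 8.14 in Cort+/+ MCAO. It measured 9.29, 8.50 and 8.91 RPKM in Cort-/- CL and 7.17, 8.39, 8.14, 7.77 and 7.75 in Cort-/- MCAO, where the groups did not overlap. Its log2FC over both genotypes was −0.14 ± 0.04 and did not pass (adjusted p = 0.0891). Among the B class, Ephb4, a receptor known from veins, had a log2FC of 0.09 ± 0.14 in Cort+/+ and 0.37 ± 0.13 in Cort-/- mice (adjusted p = 0.194 in the latter). The other 9 Eph receptors had log2FC between −0.08 and 0.06 over both genotypes.

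Efnb2 (ENSMUSG00000001300.18, chr8:8667226-8711249), a transmembrane ephrin of neurons and arterial endothelium that binds EphB receptors and Epha4, fell in MCAO. Its level was 11.8, 12.4 and 13.0 RPKM in Cort+/+ CL and 11.4, 10.9 and 11.3 in Cort+/+ MCAO. It was 14, 13.3 and 13.0 RPKM in Cort-/- CL and 11, 12.2, 11.6, 10.2 and 11 in Cort-/- MCAO. No MCAO library reached the CL libraries of its genotype. The log2FC was −0.14 ± 0.06 in Cort+/+ (adjusted p = 0.603), −0.26 ± 0.06 in Cort-/- (adjusted p = 0.0392) and −0.20 ± 0.04 over both (adjusted p = 0.0202), or 13.0% lower. Over both genotypes the call was lost without Cort-/- CL 1 (0.0614), Cort+/+ CL 3 (0.0579) or Cort+/+ MCAO 3 (0.0608). Within Cort-/- mice it held in 6 of 14 fits, those without Cort-/- MCAO 2 (0.0285), Cort-/- MCAO 3 (0.0339), Cort+/+ CL 1 (0.0420), Cort+/+ CL 3 (0.0489), Cort+/+ MCAO 3 (0.0461) or Cort+/+ MCAO 4 (0.0473), and reached 0.176 without Cort-/- CL 1.

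Efnb3 (ENSMUSG00000003934.7, chr11:69444918-69451323), a B-type ephrin of neurons that acts as a midline barrier to axons and is also made by myelinating cells, was the most abundant member and also fell. Its level was 42.4, 44.1 and 45.3 RPKM in Cort+/+ CL and 41.0, 37.1 and 42.7 in Cort+/+ MCAO. It was 42.9, 47.8 and 45.0 RPKM in Cort-/- CL and 41.9, 37.3, 40.4, 37.5 and 37.8 in Cort-/- MCAO. The groups overlapped in Cort+/+ mice and did not in Cort-/- mice. Over both genotypes the log2FC was −0.17 ± 0.04 (adjusted p = 0.0456), 11.2% lower. The call held without Cort-/- MCAO 1 (0.0348), Cort-/- MCAO 3 (0.0440), Cort+/+ CL 1 (0.0487) or Cort+/+ MCAO 4 (0.0298), was lost in the other 10 fits, up to 0.117 without Cort+/+ MCAO 3, and was lost with TPM (0.0657), median-ratio (0.0508) and quantile scaling (0.0746).

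The A-type ephrins, which are tethered to the membrane by a lipid anchor, held no call. Efna1, an ephrin induced by cytokines in endothelium, had a log2FC of 0.25 ± 0.13 over both genotypes. Efna4 had 6 to 28 reads per library and a log2FC of 0.29 ± 0.17. Efna2, Efna3 and Efna5 had −0.08, −0.07 and −0.16, and the B-type Efnb1 had −0.04. The summed level of the 8 ephrins was 91.7 ± 3.44 RPKM (SD, n = 3) in Cort+/+ CL, 85.9 ± 2.32 (n = 3) in Cort+/+ MCAO, 96.4 ± 2.12 (n = 3) in Cort-/- CL and 85.9 ± 1.69 (n = 5) in Cort-/- MCAO.

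**Figure D3:**
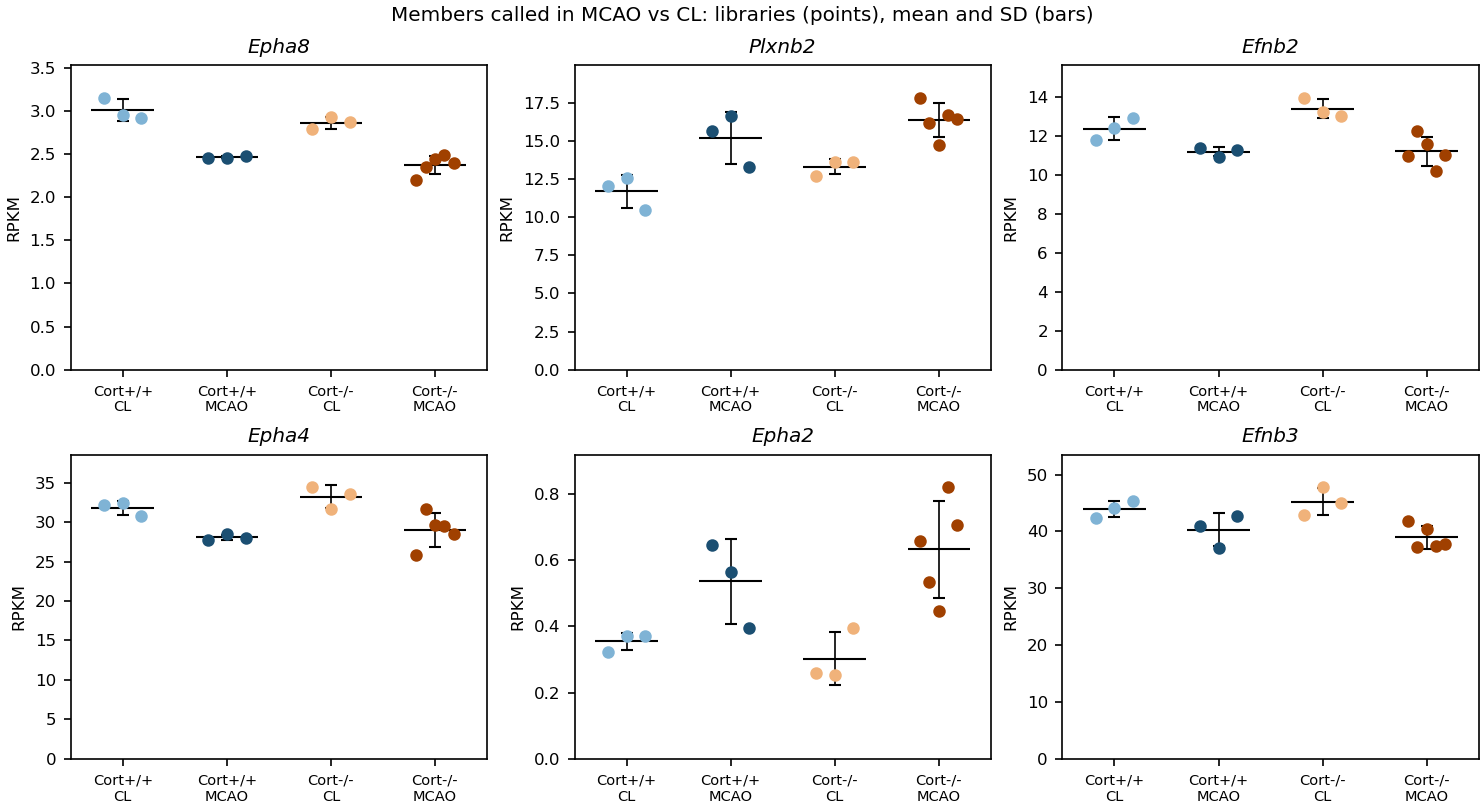
RPKM in each library (points) with mean and SD (bars) in Cort+/+ CL, Cort+/+ MCAO, Cort-/- CL and Cort-/- MCAO for the 6 members with an adjusted p under 0.05, on axes from 0. Epha8 and Efnb2 lie lower in every MCAO library than in any CL library of the same genotype, and Plxnb2 and Epha2 lie higher.

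Plxnb2 (ENSMUSG00000036606.19, chr15:89039749-89065211), a plexin for class 4 semaphorins such as Sema4c and Sema4d that is found in microglia and other non-neuronal cells as well as in neural progenitors, rose. Its level was 12.0, 12.5 and 10.5 RPKM in Cort+/+ CL and 15.6, 16.6 and 13.3 in Cort+/+ MCAO. The Cort-/- values were 12.7, 13.6 and 13.6 RPKM in CL and 17.8, 16.2, 14.7, 16.7 and 16.4 in MCAO. MCAO and CL did not overlap in either genotype. The log2FC was 0.37 ± 0.09 in Cort+/+ (adjusted p = 0.232), 0.29 ± 0.08 in Cort-/- (adjusted p = 0.0958) and 0.33 ± 0.06 over both (adjusted p = 0.00908), or 26.0% higher. The call over both genotypes held in 14 of 14 fits with 1 library left out (0.00258 to 0.0312), and without Cort+/+ MCAO 4 Plxnb2 was also called within Cort+/+ mice (0.0494).

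The other 8 plexins had log2FC between −0.10 and 0.10 over both genotypes and none was called. Plxna2 (chr1:194300526-194499177), the most abundant plexin and a receptor for class 6 and, with neuropilins, class 3 semaphorins, measured 16.6, 17.9 and 16.7 RPKM in Cort+/+ CL and 15.8, 16.6 and 16.3 in Cort+/+ MCAO. It measured 18.6, 17.4 and 17.9 RPKM in Cort-/- CL and 14.3, 18.4, 16.6, 17.0 and 16.4 in Cort-/- MCAO (log2FC over both −0.10 ± 0.05, adjusted p = 0.401). Within Cort-/- mice all 4 plexins of class A had log2FC below 0, from −0.16 to −0.10, and none passed.

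Nrp1 (chr8:129085085-129231082), a co-receptor of class 3 semaphorins and of vascular endothelial growth factor, measured 7.12, 8.77 and 7.27 RPKM in Cort+/+ CL and 9.54, 8.59 and 8.54 in Cort+/+ MCAO. The Cort-/- hemispheres measured 8.96, 7.32 and 8.66 RPKM in CL and 9.56, 10.4, 10.1, 8.36 and 9.03 in MCAO. The groups overlapped in both genotypes, and the log2FC over both was 0.20 ± 0.07 (adjusted p = 0.172 with limma on RPKM, 0.0471 with limma voom on reads). Nrp2 had 0.10 ± 0.07.

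No semaphorin was called in any comparison with the filter and scaling used throughout, and 2 were called, both lower, under some alternatives. Over both genotypes Sema4f was called with a filter at a mean of 0.5 RPKM (adjusted p = 0.0280) and without Cort-/- MCAO 2 (0.0465) or Cort+/+ MCAO 4 (0.0468), and within Cort-/- mice with that filter (0.0290). Sema5b was called over both genotypes with that filter (0.0331), with array weights (0.0448) and without Cort-/- MCAO 3 (0.0410). Over both genotypes 7 had an unadjusted p under 0.05: Sema5b (−0.22), Sema3a (−0.19), Sema4f (−0.12), Sema6b (−0.12), Sema5a (−0.11) and Sema4g (−0.11) with lower and Sema3b (0.25) with higher values. The smallest adjusted p was that of Sema4f (0.0633), a membrane-bound class 4 semaphorin (chr6:82887696-82916761). It measured 12.7, 12.9 and 12.5 RPKM in Cort+/+ CL and 11.9, 11.8 and 12.6 in Cort+/+ MCAO. In Cort-/- mice it measured 13.2, 13.7 and 13.7 RPKM in CL and 11.4, 12.6, 11.9, 11.6 and 12.3 in MCAO, which did not overlap. Its log2FC was −0.07 ± 0.05 in Cort+/+ and −0.17 ± 0.04 in Cort-/- mice (adjusted p = 0.0655).

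Sema6b (chr17:56430078-56449459), a transmembrane ligand of class A plexins, and Sema4g (chr19:44977540-44991836) had the same kind of pattern. Sema6b measured 33.1, 30.2 and 31.9 RPKM in Cort+/+ CL, 29.9, 30.4 and 30.7 in Cort+/+ MCAO, 33.3, 36.6 and 34.8 in Cort-/- CL and 29.2, 33.0, 32.0, 31.6 and 29.3 in Cort-/- MCAO. Sema4g measured 8.79, 9.21 and 8.95 RPKM in Cort+/+ CL, 8.97, 8.45 and 9.09 in Cort+/+ MCAO, 8.92, 9.25 and 9.53 in Cort-/- CL and 8.17, 8, 8.67, 7.15 and 8.58 in Cort-/- MCAO. For both genes the Cort-/- groups did not overlap, the Cort+/+ groups did, and neither passed (adjusted p = 0.124 for Sema6b and 0.161 for Sema4g in Cort-/- mice). Exons of Sema4g overlap those of Mrpl43 on the other strand.

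Sema7a (chr9:57847375-57870151), a lipid-anchored semaphorin that signals through integrins and Plxnc1, was the most abundant of its family and showed no called difference. It measured 38.3, 44.9 and 45.6 RPKM in Cort+/+ CL, 39, 40.2 and 42.2 in Cort+/+ MCAO, 43.3, 33.8 and 44.9 in Cort-/- CL and 39.1, 41.9, 42.3, 41.8 and 41.4 in Cort-/- MCAO. Its lowest value was in Cort-/- CL 2, and without that library the log2FC of Sema7a in Cort-/- mice went from 0.03 to −0.09. Sema3a, the secreted repellent of class 3 whose signalling needs Nrp1, had a log2FC of −0.19 ± 0.07 over both genotypes (adjusted p = 0.226).

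Of the Robo receptors, Robo1 and Robo2, which receive Slit signals in neurons, had negative log2FC, and Robo3 and Robo4, the latter an endothelial receptor, had positive ones, all without a call. Robo1 (chr16:72105194-72844378) measured 7.42, 7.76 and 7.59 RPKM in Cort+/+ CL, 7.07, 7.07 and 7.15 in Cort+/+ MCAO, 8.28, 7.74 and 7.83 in Cort-/- CL and 6.34, 7.40, 7.61, 6.31 and 7.11 in Cort-/- MCAO. It did not overlap between the hemispheres in either genotype (log2FC over both −0.14 ± 0.05, adjusted p = 0.140). Robo2 (chr16:73688727-75244270) measured 12.0, 12.3 and 13.8 RPKM in Cort+/+ CL, 10.5, 10.8 and 11.4 in Cort+/+ MCAO, 13.3, 11.9 and 12.1 in Cort-/- CL and 9.75, 12.7, 12.3, 12.5 and 11.1 in Cort-/- MCAO. Its hemispheres were separate in Cort+/+ mice and overlapped in Cort-/- mice (log2FC over both −0.16 ± 0.06, adjusted p = 0.236). Robo3 and Robo4 had 0.26 ± 0.18 and 0.28 ± 0.15.

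The 3 Slits, secreted ligands of the Robo receptors, had log2FC of −0.16 (Slit3), −0.08 (Slit1) and −0.05 (Slit2) over both genotypes. Slit1 (chr19:41588676-41732268), the most abundant Slit and largely neuronal, measured 22.1, 20.1 and 17.9 RPKM in Cort+/+ CL, 19.8, 21.2 and 19.3 in Cort+/+ MCAO, 20.2, 23.6 and 22.2 in Cort-/- CL and 17.8, 21.0, 20.6, 18.4 and 20.0 in Cort-/- MCAO. Slit3 (chr11:35011789-35602786) measured 8.46, 10.3 and 8.30 RPKM in Cort+/+ CL, 8.32, 8.61 and 8.46 in Cort+/+ MCAO, 10.2, 9.36 and 10.2 in Cort-/- CL and 7.34, 9.39, 8.73, 8.24 and 8.74 in Cort-/- MCAO. The hemispheres of both genes overlapped in both genotypes, and neither passed (adjusted p = 0.594 for Slit1 and 0.239 for Slit3).

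The netrins were low, at 2.28 to 2.82 RPKM, and none was called. Ntn1 (chr11:68100190-68291662), the netrin that guides axons through Dcc and Unc5 receptors, measured 2.40, 2.40 and 2.44 RPKM in Cort+/+ CL and 2.73, 3.02 and 2.81 in Cort+/+ MCAO. In Cort-/- mice it measured 2.86, 3.04 and 2.74 RPKM in CL and 2.99, 3, 2.73, 2.55 and 2.81 in MCAO. Cort+/+ CL was thus the low group, apart from the other 3. The log2FC of MCAO against CL was 0.23 ± 0.08 in Cort+/+ (adjusted p = 0.383) and −0.03 ± 0.07 in Cort-/- mice (adjusted p = 0.886), and their difference was −0.27 ± 0.10, with an adjusted p of 1 (unadjusted p = 0.0214). Ntn5 (chr7:45333446-45344100), the most abundant netrin by RPKM, measured 3.16, 2.65 and 2.87 RPKM in Cort+/+ CL, 2.46, 2.93 and 2.51 in Cort+/+ MCAO, 2.92, 2.08 and 3.16 in Cort-/- CL and 2.48, 3.23, 2.49, 3.41 and 3.20 in Cort-/- MCAO. Its hemispheres overlapped in both genotypes.

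Within one genotype, 0 of 64 members were called in Cort+/+ mice, where 0.0108% of all genes and 0.0199% of genes averaging 1 RPKM or more were called. At an unadjusted p under 0.05 there were 7 (10.9%; 7.87% of all genes and 12.1% of genes averaging 1 RPKM or more), and with limma voom 0 (0.117% of all genes). In 11 members the Cort+/+ hemispheres did not overlap, 4 higher (5.73% of all genes) and 7 lower (4.11%), which makes 17.2% (beside 9.84% of all genes and 15.5% of genes averaging 1 RPKM or more). In Cort-/- mice 2 of 64 were called, Epha8 and Efnb2, both lower (3.13%; 1.72% of all genes, 0.382% lower, and 4.08% of genes averaging 1 RPKM or more). At an unadjusted p under 0.05 there were 20 (31.2%; 12.7% of all genes and 24.6% of genes averaging 1 RPKM or more). In 12 the groups did not overlap, 3 higher (4.85% of all genes) and 9 lower (4.27%), which makes 18.8% (beside 9.11% of all genes and 18.3% of genes averaging 1 RPKM or more). The 2 calls depended on the scaling: TPM left Epha2 alone, higher and at the threshold, and limma voom, with 3.07% of all genes called, gave Epha2 (0.0148) and Plxnb2 (0.0194), both higher.

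The log2FC had the same sign in both genotypes for 44 of 64 members (68.8%), 29 lower in both and 15 higher in both, beside 60.1% of all genes and 75.8% of genes averaging 1 RPKM or more. The size was larger in Cort-/- mice for 46 of 64 (53.8% of all genes and 62.6% of genes averaging 1 RPKM or more): 8 of 8 ephrins, 12 of 14 Eph receptors, 13 of 20 semaphorins, 5 of 9 plexins, 3 of 4 Robo receptors, 3 of 3 Slits, 2 of 4 netrins and 0 of 2 neuropilins. The same CL libraries enter this count and the comparison of genotypes in CL below, and their part in it was not tested. The difference of the response between genotypes was called for 0 of 64 members (0.00217% of all genes), with an unadjusted p under 0.05 for 1, Ntn1 (1.56%; 3.31% of all genes and 1.41% of those averaging 1 RPKM or more), and for 0 with limma voom, which called 0 of all genes. For Epha8 this difference was 0.02 (95% interval −0.17 to 0.21), for Plxnb2 −0.08 (−0.34 to 0.18), for Epha2 0.39 (−0.29 to 1.07), for Efnb2 −0.12 (−0.30 to 0.07), for Epha4 −0.02 (−0.20 to 0.16) and for Efnb3 −0.09 (−0.27 to 0.10).

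**Figure D4:**
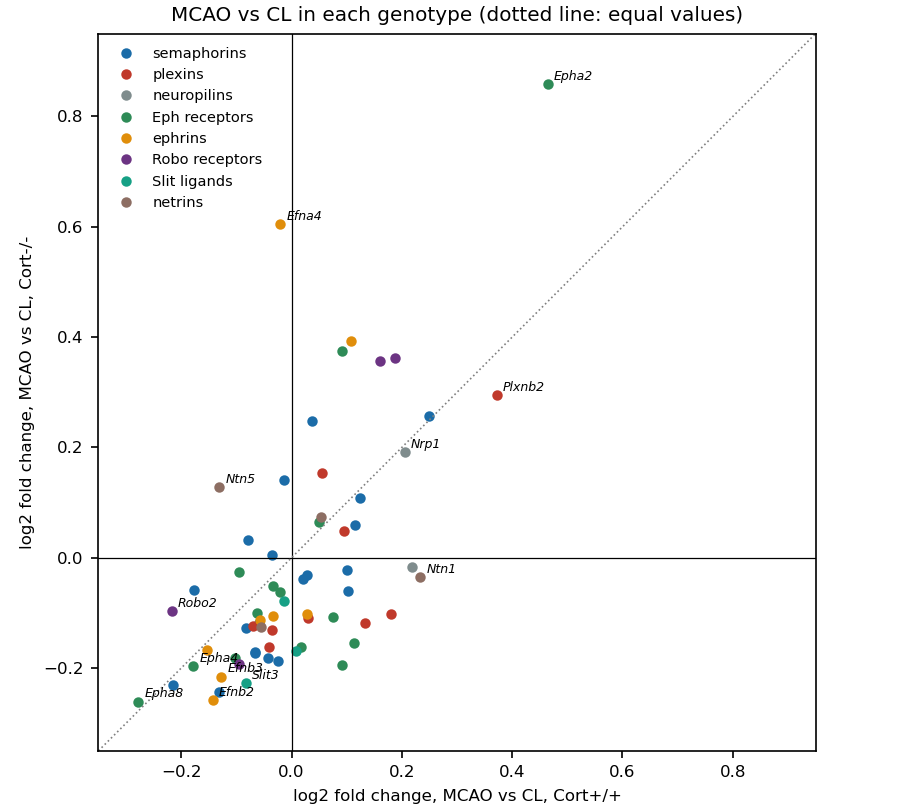
Log2 fold change of MCAO against CL in Cort+/+ mice (x axis) and in Cort-/- mice (y axis) on the log2(RPKM + 0.1) scale, 1 point for each of the 64 members, coloured by family, with equal values on the dotted line. The 2 axes rest on different libraries, and 44 of 64 points have the same sign on both.

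Between genotypes no member was called. In the CL hemisphere 0 of 64 passed (0.0152% of all genes), 3 had an unadjusted p under 0.05 (4.69%; 3.91% of all genes and 2.94% of those averaging 1 RPKM or more), and limma voom called 0 (0.0325% of all genes). The log2FC of Cort-/- against Cort+/+ CL was above 0 in 47 of 64 members and below in 17, with a median of 0.06, where 47.7% of genes averaging 1 RPKM or more were below 0. With TPM, median-ratio or quantile scaling it was above 0 in 53, 47 and 46 members. The groups did not overlap for 9 members (14.1%; 6.25% of all genes and 6.18% of those averaging 1 RPKM or more): Efnb2, Epha1, Ephb6, Nrp2, Ntn1, Plxnb2, Sema4f and Sema6b were higher in every Cort-/- library (3.9% of all genes) and Ephb4 lower (2.35%). None of these 9 passed the test. Among those averaging at least 0.5 RPKM, only Ntn1 had an unadjusted limma p under 0.01. Ntn1 measured 2.88 ± 0.15 RPKM (SD, n = 3) in Cort-/- CL and 2.41 ± 0.023 (n = 3) in Cort+/+ CL, a log2FC of 0.25 ± 0.08 with an unadjusted p of 0.00670 and an adjusted p of 1. The members share their 6 libraries, so a leaning over members is not 64 separate observations.

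In the MCAO hemisphere 0 of 64 members passed between genotypes (0.0174% of all genes), also with limma voom (0.0195% of all genes), and 1 had an unadjusted p under 0.05 (1.56%; 3.82% of all genes and 2.29% of those averaging 1 RPKM or more). That was Efna4, also the single member whose groups did not overlap (1.56%; 2.42% of all genes and 2.14% of those averaging 1 RPKM or more). The log2FC was above 0 in 33 of 64 members, and in 53 with TPM scaling. Efna4 measured 0.209, 0.276 and 0.141 RPKM in Cort+/+ MCAO and 0.374, 0.317, 0.284, 0.419 and 0.310 in Cort-/- MCAO, and 0.190, 0.235 and 0.201 in Cort+/+ CL and 0.109, 0.244 and 0.232 in Cort-/- CL. Every one of these values rests on 6 to 28 reads, and the adjusted p was 1. Of the members called between MCAO and CL over both genotypes, Epha8 differed between Cort-/- and Cort+/+ MCAO by −3.63% (95% interval −11.7% to 5.24%). Efnb2 differed by −0.0824% (−8.17% to 8.72%), Epha4 by 3.08% (−5.19% to 12.1%) and Efnb3 by −3.22% (−11.1% to 5.38%). Plxnb2 differed by 8.10% (−4.21% to 22.0%) and Epha2 by 15.1% (−15.9% to 57.5%).

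**Figure D5:**
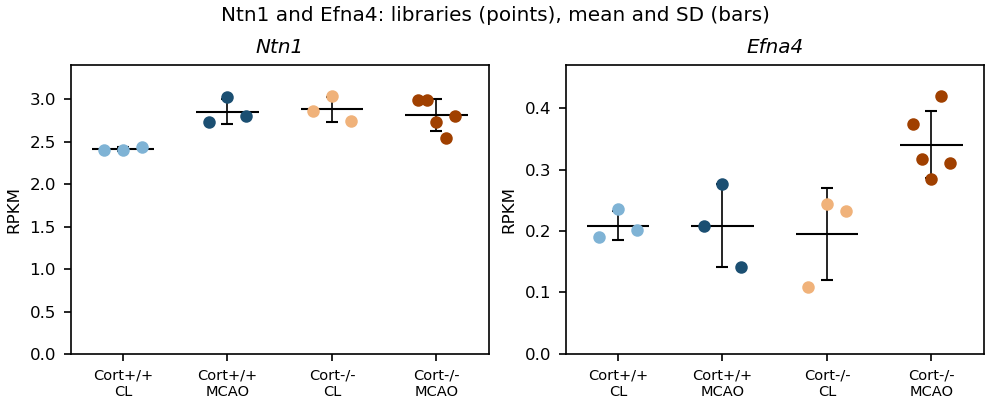
RPKM in each library (points) with mean and SD (bars) of Ntn1 and Efna4 in the 4 groups, on axes from 0. Ntn1 is lowest in Cort+/+ CL at 2.41 ± 0.023 RPKM, and Efna4 is highest in Cort-/- MCAO, where single libraries hold at most 28 reads.

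The other genes of the guidance pathways were a list of 66 receptors, partners, myelin inhibitors and intracellular effectors, which were all tested. Over both genotypes the median log2FC of the list was −0.04 with 42 lower. Among the genes called, Rhoa, the small GTPase that collapses growth cones downstream of plexins and Ephs (0.21), and Mical1, an actin-oxidising enzyme of plexin signalling (0.29), were higher. Dcc, the netrin receptor (−0.30), and Flrt3, a membrane partner of Unc5 receptors (−0.31), were lower. Within Cort-/- mice Flrt3 was called (−0.37), and within Cort+/+ mice 0 of the 66. The 9 genes of myelin and Nogo inhibition held 0 calls in these comparisons, and between genotypes or for the difference of the response the 66 held 0.

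Markers of several cell types differed between the hemispheres together with these members. Of 8 markers of microglia and macrophages, 8 had a log2FC above 0 over both genotypes and 7 were called higher in MCAO. The summed level of the 8 was 101.6 to 122.3 RPKM in the CL and 143 to 263.5 in the MCAO libraries. Of 6 markers of striatal spiny neurons 6 were called lower, with summed levels of 220.9 to 265.3 RPKM in CL and 93.2 to 198 in MCAO. Of 7 endothelial markers 7 had a log2FC above 0 and 2 were called higher (27.9 to 39 RPKM in CL, 38.7 to 54.3 in MCAO). Of 6 astrocyte markers 4 lay above 0 and 3 were called higher (541 to 718 and 633 to 859 RPKM). Of 6 leukocyte markers 4 lay above 0 and 1 was called higher (Ptprc, also made by microglia). Cd3e, another of these, was at 0 in some libraries. Of 6 mural cell markers 4 lay above 0, and of 4 fibroblast markers 4, with 1 called higher in each list. The 5 general neuronal markers (1680 to 2072 RPKM in CL, 1492 to 1744 in MCAO), the 5 oligodendrocyte markers, the 3 precursor markers, the 4 choroid plexus markers and the 3 erythrocyte markers held 0 calls. In CL, the endothelial markers summed to 37.5 to 39 RPKM in Cort+/+ and 27.9 to 32.1 in Cort-/- mice, without overlap. Between genotypes in CL, 0 of these 7 markers were called, and 3 had an unadjusted limma p under 0.05. The part of any of these cell types in the levels of Plxnb2, Epha2, Ephb4, Epha8, Epha4, Efnb2 or Efnb3 was not tested.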

How the data were processed

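RNA-seq was performed on 14 mouse brain hemispheres with a stranded mRNA kit. Per the labels and methods, the authors used the reanalyzerGSE pipeline with GRCm39 and deposited RPKM values per gene and library, without pooling. Whether the counting used strand is not given in the sources used here, and exons of 37 of the 64 members overlap another gene. All 495656 values above 0 came back as whole reads within 0.01 reads, with library sizes of 0.954 to 1.04 times the reads on genes. These recovered reads served for depth and for limma voom only. No replicate library was a copy of another (chi-square of their reads 5.21 to 23.0 per degree of freedom).

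The filter kept 46102 of 46904 genes, those with a value over 0 in 2 or more libraries. Since the deposited unit is RPKM and not counts, log2(RPKM + 0.1) was fitted with limma 3.58.1 in R 4.3.3, as 1 model of 4 group means without a replicate block, with empirical Bayes trend, Benjamini-Hochberg adjustment over all genes and calls at an adjusted p under 0.05. The contrasts were MCAO against CL in each genotype and averaged, Cort-/- against Cort+/+ in each hemisphere, and the difference of the responses. Intervals are 95% intervals of limma. P-values measure the spread between libraries, which the labels describe as biological replicates. The fit was also run on simulated reads with a single fixed amount of spread between libraries for all genes. The outcome is not reported here.

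Members were taken by symbol, with no value used in the rule, but these families, the marker and pathway lists and the rule for named genes were chosen with earlier results of these data known. Values in every library are given for members called in any contrast, for those with a mean of at least 0.5 RPKM, an unadjusted p under 0.01 and no overlap between the groups of a contrast, and for the most abundant member and the one of lowest p (mean of at least 0.5 RPKM) in each family. Efna4 was added after its values were seen. Gene positions are from GENCODE M39, and the promoter windows of all 64 members were found there. Protein sequences were not used here. Not every result of the pathway list is reported here. The alternatives were other scalings (TPM, median ratio, quantile), pseudocounts of 0.01 and 1, no filter, a filter at a mean of 0.5 RPKM, array weights, robust empirical Bayes, a replicate block, limma voom, fits of only the 2 groups compared, and leaving out each library.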

Additional observations from a re-analysis of the deposited data

Results flagged for a closer look

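One of 64 groups tested, the 5 Cort-/- MCAO libraries of each member, stood out by a single library. The groups of 3 libraries were too small for this rule and were not tested. Robo4, a receptor of vascular endothelium, measured 1.91 RPKM in Cort-/- MCAO replicate 4, while the other 4 libraries of that group lay between 1.3 and 1.43 RPKM. The gap to the nearest library was 0.785 of the whole range of the group, above Dixon's 95% limit for 5 libraries. Chance flags about 1 in 20 such groups. The summed level of 7 endothelial markers was also highest in that library, at 54.3 RPKM against 38.7 to 45.8 in the other 4, and its part in the Robo4 value was not tested. Robo4 was not called in any comparison.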

How the results depend on the processing

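Of 2920 log2 fold changes of the 19 named members that were recomputed under the alternatives, 2819 kept their direction and side of the threshold or moved by less than their error, 75 lost and 17 gained an adjusted p under 0.05, 9 moved by more, and 0 called values changed sign (74 uncalled ones did). The count of members called in MCAO against CL over both genotypes was 6, became 3 with TPM scaling and 0 with a replicate block, and ran from 2 to 7 when 1 library was left out: 2 without Cort-/- CL 1 or Cort+/+ MCAO 3, 3 without Cort+/+ CL 2, Cort+/+ CL 3 or Cort+/+ MCAO 2, and 7 without Cort-/- MCAO 3 or Cort+/+ MCAO 4. Within Cort-/- mice the count of 2 became 1 with TPM, quantile normalization or a pseudocount of 1, 6 with the filter at a mean of 0.5 RPKM, where 17476 genes were tested, and 0 in the fit of the 2 groups alone, and it ran from 0 to 3 when 1 library was left out: 0 without any 1 of the Cort-/- CL libraries, Cort-/- MCAO 1, 4 or 5, Cort+/+ CL 2 or Cort+/+ MCAO 2, 1 (Efnb2) without Cort-/- MCAO 2, Cort+/+ CL 3, Cort+/+ MCAO 3 or Cort+/+ MCAO 4, 2 without Cort+/+ CL 1 and 3 without Cort-/- MCAO 3. Within Cort+/+ mice it ran from 0 to 1, with Plxnb2 called without Cort+/+ MCAO 4. For both genotype comparisons and the difference of the responses the count stayed 0 under all these alternatives. Except where the number of genes tested or of samples changed, the cause was not tested. Epha2, at a mean of 0.482 RPKM, was outside the filter at 0.5 RPKM.

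With the replicate number as a block, 0 members were called in any comparison (adjusted p = 0.0787 for Epha8 and 0.0740 for Plxnb2 over both genotypes, 0.253 for Efnb2 and 0.230 for Epha8 in Cort-/- mice). The labels do not say that a number marks 1 mouse, and the correlations of same-numbered CL and MCAO libraries after removal of group means were 0.316 and −0.141 in Cort+/+ and −0.0645, −0.239 and 0.0271 in Cort-/- mice, so the numbers were not taken as pairs. Counting error is largest for the 4 members with under 100 reads in some library, Efna4 (fewest 6), Epha1 (14), Epha2 (33) and Efna1 (92).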
